A study of Mus musculus with 23 samples.

Results

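Iron storage and iron handling genes were followed through 23 single mouse cells on Affymetrix arrays. The 8 genes were taken by symbol: the ferritin chains Fth1 and Ftl1, the uptake genes Tfrc and Slc11a2, the exporter Slc40a1, the iron regulatory proteins Aco1 and Ireb2, and the haem-degrading enzyme Hmox1. They are 8 of 19324 symbols, and they hold 22 of 45101 probe sets, of which 3 are control probe sets for Tfrc. The set was chosen by measured values, since earlier results of these data had shown Fth1 to be high in the fibroblast groups given RNA relative to untreated fibroblasts. Its values against untreated fibroblasts, and those of the other members in the same contrasts, are therefore given as a description with no test.

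The groups were 5 fibroTIPeR cells (fibroblasts transfected with poly-A RNA of cardiomyocytes), 3 fibroControl cells (fibroblasts transfected with fibroblast RNA), 4 cardiomyocytes and 3 fibroblasts with no transfection, 6 astroTIPeR cells (astrocytes transfected with cardiomyocyte RNA) and 2 astroControl cells (mock-transfected astrocytes). All cells were cultured, taken singly with a glass micropipette and their RNA amplified, and transfection used a lipid reagent. The labels give no strain, age, time after transfection, culture or animal. Every n counts cells, and a p-value here reflects the scatter of these cells alone, part of which may be technical. No group of untransfected astrocytes or of mock-transfected fibroblasts was analysed here, so transfection itself and the RNA given cannot be told apart in fibroblasts, and for astrocytes neither can transfection, cell type and array set. Levels are log2 values after quantile normalization of all arrays (the median gene stood at 5.71), and a difference of 1 is a doubling.

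Ferritin is a hollow protein shell that stores iron in a harmless form. Its heavy chain, Fth1, oxidises iron at the entry, and its light chain, Ftl1, helps the iron core to form. Transferrin receptor (Tfrc) takes up transferrin-bound iron, Slc11a2 carries the iron out of the endosome, and ferroportin (Slc40a1) exports it from the cell. When iron is scarce, Aco1 and Ireb2 bind hairpins in messenger RNAs, which blocks ferritin translation and stabilises the Tfrc message, so much of this control changes protein more than ferritin mRNA.

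The stretches upstream of the RefSeq starts of Fth1 and Ftl1 are shown because a probe set of each was high in the same cells. That of Ftl1 is shared with its pseudogene Ftl1-ps2 and cannot be given to Ftl1 alone. Fth1 lies at chr19:9980600-9985111 and Ftl1 at chr7:45457944-45459886 in GRCm38.p6. In the following sequences, 5′ to 3′ on the gene's strand, capitals mark the letters TATAA and the GC box GGGCGG, on either strand. The first pair is the 250 bases before a start (chr19:9982396-9982645, plus strand, for the downstream of 2 Fth1 starts, and chr7:45459887-45460136, minus strand, for Ftl1), and the second pair is a 30-base run around TATAA just after these starts (chr19:9982660-9982689 and chr7:45459852-45459881).
Fth1 upstream: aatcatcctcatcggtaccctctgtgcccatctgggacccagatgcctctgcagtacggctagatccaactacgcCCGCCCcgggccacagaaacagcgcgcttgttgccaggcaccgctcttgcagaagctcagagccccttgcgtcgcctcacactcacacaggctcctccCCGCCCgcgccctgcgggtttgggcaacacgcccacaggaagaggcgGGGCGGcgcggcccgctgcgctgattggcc
Ftl1 upstream: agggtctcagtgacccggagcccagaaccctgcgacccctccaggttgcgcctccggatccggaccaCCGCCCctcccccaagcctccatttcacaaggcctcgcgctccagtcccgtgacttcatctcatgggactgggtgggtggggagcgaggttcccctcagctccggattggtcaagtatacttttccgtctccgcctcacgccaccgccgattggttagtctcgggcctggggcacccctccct
Fth1 TATAA: gcaggatcccgcTATAAgtgcggcccgctg
Ftl1 TATAA: gggtcaacatgcTATAAaaggagcgctcct

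Windows of 300 bases were held for 5 of the 8 genes, with 7 windows, and Slc11a2, Slc40a1 and Hmox1 are named only. In the windows shown, Fth1 had 3 GC boxes and Ftl1 had 1, and each had TATAA 1 time. Among 32851 windows of all genes, 24.9% held TATAA and 35.7% held the GC box, so neither is rare. The antioxidant response element core TGACNNNGC, with N for any base, was in none of the 7 windows and in 12.4% of all. These matches are letters only and say nothing of which factor acts there.

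Before the members, the arrays themselves differed. The 15 fibroblast and cardiomyocyte arrays and the 8 astrocyte arrays had deposited medians of 5.05 to 5.58 and 4.28 to 4.56, so a level compared across these sets rests on the normalization. Control probe sets for 18S ribosomal RNA stood at 12.38, 11.03, 13.48, 7.80 and 7.88 in fibroTIPeR cells 1 to 5, at 11.23 to 12.08 in fibroControl cells, at 6.94 to 8.24 in cardiomyocytes, at 7.05 to 8.06 in fibroblasts, at 7.63 to 9.57 in astroTIPeR cells and at 8.17 to 9.09 in astroControl cells. The 10 cardiomyocyte markers averaged 9.62 in cardiomyocytes and 4.72 to 5.80 in every other group, higher in their own group. The 10 fibroblast markers averaged 8.45 in fibroTIPeR cells, 9.33 in fibroControl cells, 6.32 in cardiomyocytes and 8.72 in fibroblasts. The 9 astrocyte markers did not stand apart in astrocytes, at 7.39 in astroTIPeR and 6.73 in astroControl cells, beside 7.76 in cardiomyocytes. A high level alone does not show expression, since the 4 neuron markers averaged 9.30 to 9.80 in all 6 groups.

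On its brighter probe set, 1448771_a_at, Fth1 was high in all groups given RNA or mock transfection and low in both untransfected groups. It stood at 12.58, 10.33, 11.96, 6.98 and 10.57 in the 5 fibroTIPeR cells and at 10.97, 11.79 and 12.28 in the 3 fibroControl cells. Cardiomyocytes had 4.28, 3.76, 5.29 and 4.74, and fibroblasts 4.31, 3.51 and 5.82. AstroTIPeR cells ranged from 8.84 over a median of 10.08 to 11.66, and the astroControl cells had 10.09 and 10.63. By group mean the order was fibroControl (11.68 ± 0.66, SD), fibroTIPeR (10.49 ± 2.17), astroControl (10.36 ± 0.38), astroTIPeR (10.30 ± 1.03), fibroblast (4.55 ± 1.18) and cardiomyocyte (4.52 ± 0.65). Within the first 4 of these, and within the last pair, neighbours overlapped, and the lowest transfected cell, fibroTIPeR 4, lay above every untransfected one.

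**Figure D1:**
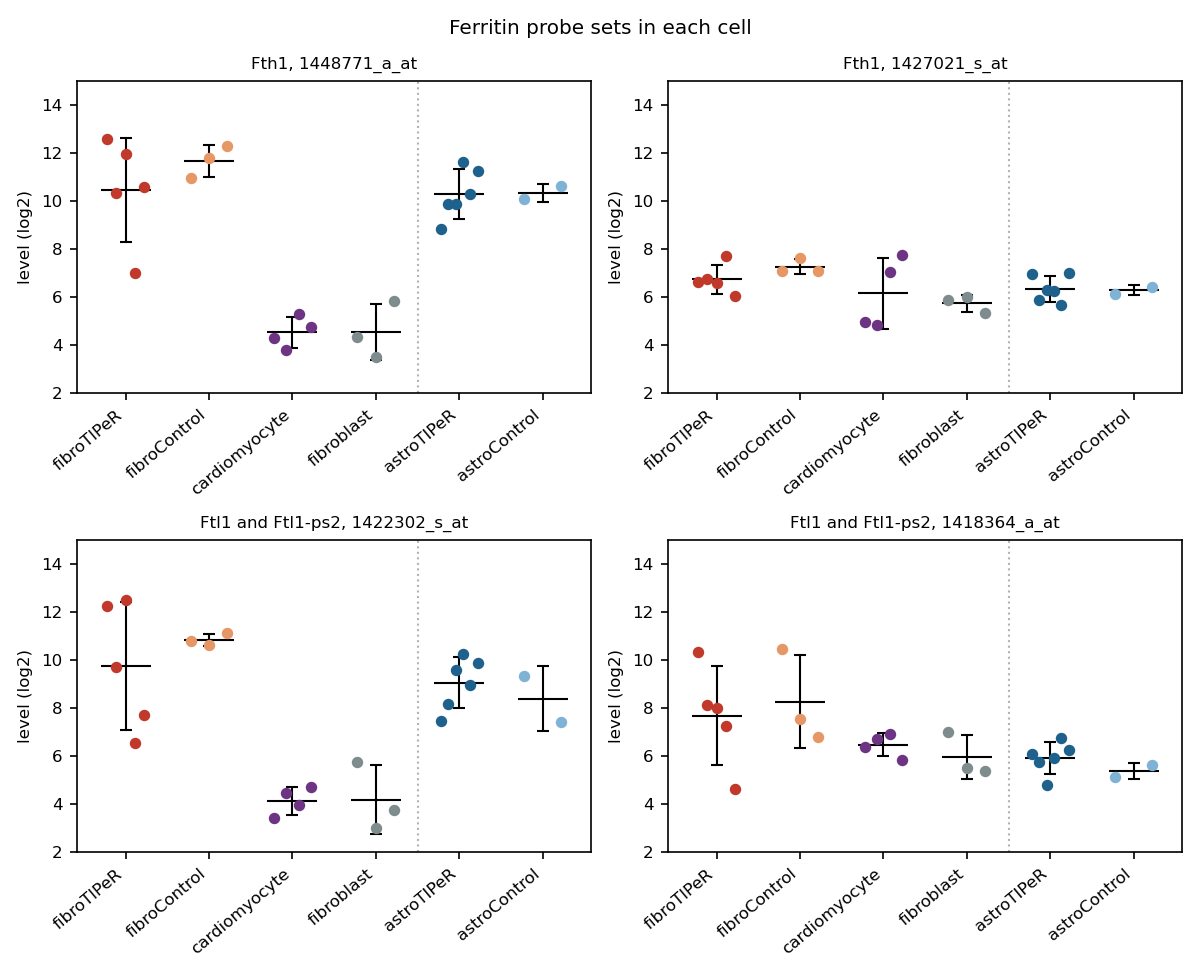
Levels (log2, vertical axis) of 4 ferritin probe sets in each of 23 cells, by group; each point is 1 cell, and the line and bar are the group mean and SD. On 1448771_a_at and 1422302_s_at the untransfected cardiomyocytes and fibroblasts all lie below 6 and the transfected groups all above it, while on the other 2 probe sets the cardiomyocytes overlap the transfected fibroblasts.

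The RNA-transfected fibroblasts differed from untreated fibroblasts by 5.94 (SE 0.93, fibroTIPeR) and 7.14 (SE 1.05, fibroControl) in Fth1, with no overlap between the cells. Of the 7 members with a probe set of their own, 1, Fth1, was past the threshold of an adjusted p of 0.05 in each of these contrasts, in which 0.055% and 1.56% of 18193 genes were; since the contrasts chose Fth1, these counts support nothing, and without fibroTIPeR 3 the first was 0. The 2 contrasts share the fibroblasts. The second Fth1 probe set, 1427021_s_at, gave a difference of only 0.99 (SE 0.72) and 1.52 (SE 0.81), with means of 6.74 in fibroTIPeR cells, 7.26 in fibroControl cells and 5.74 in fibroblasts. Its cells did not overlap either, but cardiomyocytes spread from 4.84 to 7.73 on it and crossed all other groups. AstroTIPeR cells averaged 6.34, astroControl cells 6.28 and cardiomyocytes 6.14 on this probe set, so astrocytes did not stand apart from cardiomyocytes there.

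No difference in Fth1 between fibroblasts given cardiomyocyte RNA and those given fibroblast RNA was detected. FibroTIPeR cells averaged 10.49 and fibroControl cells 11.68, a difference of -1.20 (SE 0.93, 95% interval -3.12 to 0.72, limma adjusted p = 0.851), and the groups overlapped. In astrocytes the difference of astroTIPeR from astroControl cells was -0.06 (SE 1.05, interval -2.21 to 2.09, limma adjusted p = 0.995), again with overlap. The 2 effects did not differ detectably (-1.14, SE 1.40, limma adjusted p = 0.895), although the fibroblast control received fibroblast RNA and the astrocyte control a mock transfection. Cardiomyocytes, the RNA donors by label, differed from fibroblasts by -0.03 (SE 0.98), given here as a description, and were at the low end.

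Of the 3 probe sets that list the light chain, 1422302_s_at was high and low in the same groups as 1448771_a_at of Fth1, and the other 2 differed less. No probe set is annotated to Ftl1 alone: all 3 also list its pseudogene Ftl1-ps2 on chromosome 10, and 1422301_at further lists the Mir692 genes, so none of these values can be given to Ftl1 by itself. Probe set 1422302_s_at stood at 12.26, 9.72, 12.51, 6.53 and 7.69 in fibroTIPeR cells and at 10.79, 10.63 and 11.13 in fibroControl cells. It stood at 3.40, 4.44, 3.95 and 4.70 in cardiomyocytes and at 5.77, 2.98 and 3.74 in fibroblasts. AstroTIPeR cells ranged from 7.47 over a median of 9.28 to 10.26, and astroControl cells had 9.35 and 7.43. As with Fth1 on 1448771_a_at, all transfected cells lay above all untransfected ones.

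On this probe set the difference from fibroblasts was 5.58 (SE 1.07) for fibroTIPeR and 6.69 (SE 1.20) for fibroControl cells, as a description. Cardiomyocytes differed from fibroblasts by -0.04 (SE 1.12, limma adjusted p = 0.995), fibroTIPeR from fibroControl cells by -1.11 (SE 1.07, limma adjusted p = 0.919) and astroTIPeR from astroControl cells by 0.67 (SE 1.20, limma adjusted p = 0.923). Probe set 1422301_at was between 12.57 and 14.25 in every cell, with a mean of 13.56 among fibroTIPeR, 13.89 among fibroControl and 12.90 among untreated fibroblast cells. Its difference from fibroblasts was 0.67 (SE 0.19) in fibroTIPeR cells, with overlap, and 1.0 (SE 0.21) in fibroControl cells, without. Probe set 1418364_a_at averaged 7.67 in fibroTIPeR cells, 8.27 in fibroControl cells and 5.96 in fibroblasts, differences of 1.70 (SE 0.96) and 2.31 (SE 1.07), with overlap. All 3 shared probe sets were thus higher in both RNA-transfected fibroblast groups than in fibroblasts, again as a description. In the fit of all 45037 probe sets, chosen after seeing the data, 1 of the 19 member probe sets, 1448771_a_at of Fth1, passed in fibroTIPeR and 3 passed in fibroControl against fibroblast, namely 1448771_a_at, 1422302_s_at and 1422301_at (background 0.00444% and 1.32%), a description from the contrasts that chose Fth1. None of the 19 passed in the other comparisons (background 0.00222% for fibroTIPeR against fibroControl, 0.127% for cardiomyocyte against fibroblast and 0.127% for astroTIPeR against astroControl).

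Ferritin levels also moved with the 18S control. Of the 8 RNA-transfected fibroblasts, the 6 with 18S above 10 had Fth1 at 10.33 to 12.58 and 1422302_s_at at 9.72 to 12.51. The 2 below 10, fibroTIPeR 4 and 5, had Fth1 at 6.98 and 10.57 and 1422302_s_at at 6.53 and 7.69. The 7 untransfected cells, with 18S of 6.94 to 8.24, had Fth1 at 3.51 to 5.82 and 1422302_s_at at 2.98 to 5.77. The fibroTIPeR cells 4 and 5 had 18S levels within this range and ferritin above it. With these 2 cells as the whole fibroTIPeR group the Fth1 difference from fibroblasts was 4.23 (SE 1.02), with fibroTIPeR 1 to 3 alone 7.08 (SE 0.84), and with 18S as a covariate 3.92 (SE 0.94) for fibroTIPeR and 4.38 (SE 1.14) for fibroControl cells. For 1422302_s_at the covariate left 2.70 (SE 0.94) and 2.77 (SE 1.14). By group mean the B2 repeat moved likewise, at 11.08 ± 2.52 in fibroTIPeR cells, 11.74 ± 0.74 in fibroControl cells and 8.34 ± 2.35 in fibroblasts. Single cells departed from this. Fibroblast 3 had B2 at 11.02 with Fth1 at 5.82, whereas fibroTIPeR 4 and 5 had B2 at 8.31 and 8.52. The part of either measure in the ferritin levels was not tested further.

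**Figure D2:**
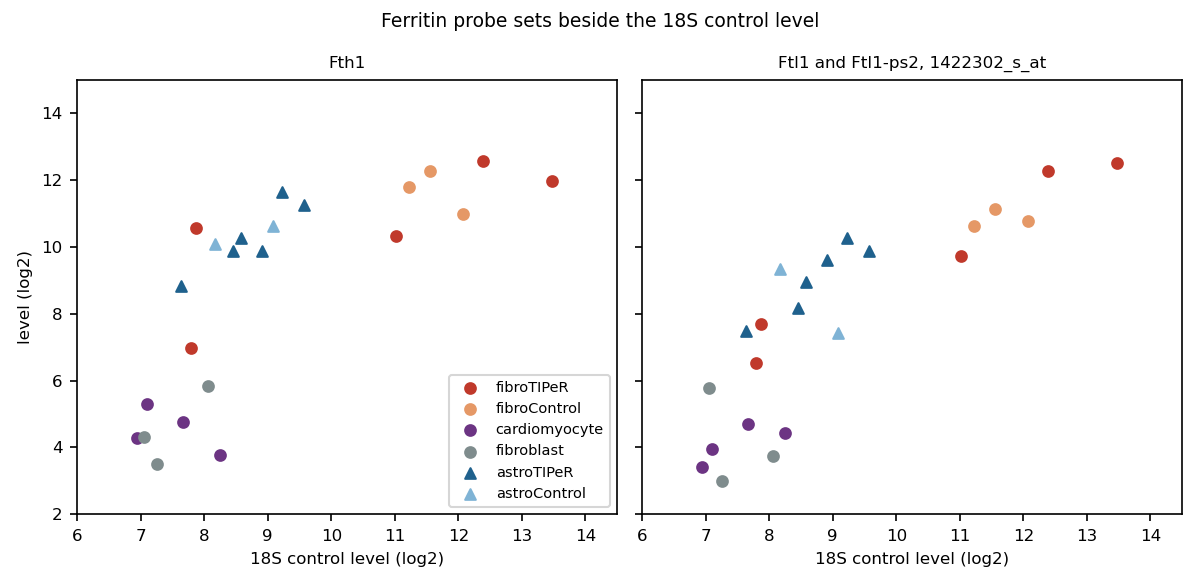
Level (log2, vertical axis) of Fth1 and of 1422302_s_at against the 18S control level (log2, horizontal axis); each point is 1 cell, circles are fibroblast and cardiomyocyte arrays and triangles astrocyte arrays. Cells with 18S above 10 are all RNA-transfected fibroblasts with high ferritin, and at 18S near 8 fibroTIPeR 4 and 5 lie above the untransfected cells.

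Markers of ferritin-rich cell types were set beside these levels, and their part in the ferritin levels was not tested. The 12 macrophage and microglia markers averaged 6.45 (cells 6.10 to 6.88) in fibroTIPeR cells, 6.31 (6.26 to 6.38) in fibroControl cells and 6.75 (6.47 to 6.91) in fibroblasts, with 4, 3 and 5 of 12 above the median of all genes. Of the 12, 6 were higher than in fibroblasts in each RNA-transfected group, with median differences of -0.044 (fibroTIPeR) and -0.071 (fibroControl). Laptm5, a lysosomal membrane protein of blood cells, averaged 15.02 in fibroTIPeR cells, 15.08 in fibroControl cells and 14.75 in untreated fibroblasts. Its difference from fibroblasts was 0.27 (SE 0.068) with overlap and 0.33 (SE 0.076) without. Csf1r went the other way, at 9.36 in fibroTIPeR cells, 8.13 in fibroControl cells and 11.02 in fibroblasts. Laptm5 was also higher than in fibroblasts in the untransfected cardiomyocytes, at 15.07 without overlap (difference 0.33, SE 0.071, limma adjusted p = 0.0442). The 12 averaged 7.60 in astroTIPeR and 7.04 in astroControl cells. The 5 erythroid markers averaged 5.23 in fibroTIPeR, 5.34 in fibroControl, 6.22 in cardiomyocyte and 6.01 in fibroblast cells, with 1 of 5 above that median in each group.

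Transferrin receptor, which brings transferrin-bound iron into the cell, stayed in a narrow range on its brightest probe set, but not on its others. Over all cells 1422966_a_at ran from 6.36 to 11.36 and 1452661_at from 2.27 to 9.31. Probe set 1422967_a_at was between 10.07 and 11.81 in all 23 cells, with 10.07, 11.65, 11.01, 10.71 and 11.55 in fibroTIPeR and 11.58, 11.81 and 11.56 in fibroControl cells. Cardiomyocytes had 11.43, 11.27, 11.23 and 11.51 and fibroblasts 10.69, 11.22 and 10.77. AstroTIPeR cells lay between 10.84 and 11.77, and astroControl cells had 11.49 and 10.57. The difference was -0.65 for fibroTIPeR against fibroControl (SE 0.34, limma adjusted p = 0.774), 0.47 for cardiomyocytes against fibroblasts (SE 0.35, limma adjusted p = 0.687) and 0.23 for astroTIPeR against astroControl (SE 0.38, limma adjusted p = 0.921). Against fibroblasts Tfrc differed by 0.11 (SE 0.34) in fibroTIPeR and 0.76 (SE 0.38) in fibroControl cells.

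All 3 Tfrc probe sets were higher than in fibroblasts, by 0.11 to 0.87 in fibroTIPeR and by 0.42 to 0.80 in fibroControl cells, and of these differences that of 1422967_a_at in fibroControl cells was without overlap. Probe set 1422966_a_at averaged 9.79 in cardiomyocytes and 7.96 in fibroblasts without overlap (difference 1.82, SE 0.72, limma adjusted p = 0.438, in the fit of all probe sets), and 1452661_at ran from 2.27 to 9.31 within the fibroTIPeR group. The control probe sets along the Tfrc message stood at 9.18 to 12.15 at the 3′ end, 3.41 to 8.46 in the middle and 2.32 to 5.83 at the 5′ end over all cells. The 3′ level thus exceeded the 5′ level in each group, by 7.0 ± 0.48 in fibroTIPeR, 6.15 ± 0.95 in fibroControl, 7.37 ± 0.52 in cardiomyocyte, 6.31 ± 1.38 in fibroblast, 8.05 ± 0.80 in astroTIPeR and 6.90 ± 1.97 in astroControl cells.

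Slc11a2, which moves iron out of the endosome, averaged on 1452078_a_at 6.62 ± 0.58 in fibroTIPeR and 6.83 ± 0.02 in fibroControl cells (difference -0.21, SE 0.74, interval -1.73 to 1.31, limma adjusted p = 0.977). It averaged 6.70 ± 0.92 in cardiomyocytes and 6.33 ± 1.08 in fibroblasts, and 6.10 ± 0.76 in astroTIPeR and 6.4 ± 1.84 in astroControl cells, and in each comparison the groups overlapped. The groups did separate on 1426441_at, a dimmer probe set. It had 3.54, 3.98, 4.63, 4.05 and 3.18 in fibroTIPeR cells and 4.86, 6.72 and 4.63 in fibroControl cells, where the nearest cells of both groups rounded to the same level (difference -1.53, SE 0.74, limma adjusted p = 0.774, in the fit of all probe sets). AstroTIPeR cells had 3.73 to 4.98 and astroControl cells 2.18 and 3.55 (difference 1.75, SE 0.82, limma adjusted p = 0.487). The difference of these effects was -3.28 (SE 1.11, limma adjusted p = 0.447), and none of the 3 passed. The other 2 probe sets overlapped in these comparisons.

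The exporter Slc40a1 on 1448566_at had 4.98, 5.52, 5.07, 5.54 and 4.61 in fibroTIPeR and 6.41, 5.80 and 4.21 in fibroControl cells. Cardiomyocytes averaged 6.25 ± 0.66 and fibroblasts 5.26 ± 0.78 (difference 0.99, SE 0.68, limma adjusted p = 0.658). AstroTIPeR cells averaged 7.40 ± 0.51 and astroControl cells 6.35 ± 1.21 (difference 1.05, SE 0.73, limma adjusted p = 0.714). The second probe set, 1417061_at, had the opposite sign in both, with 5.06 in cardiomyocytes and 5.55 in fibroblasts, and 4.92 in astroTIPeR and 5.87 in astroControl cells.

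**Figure D3:**
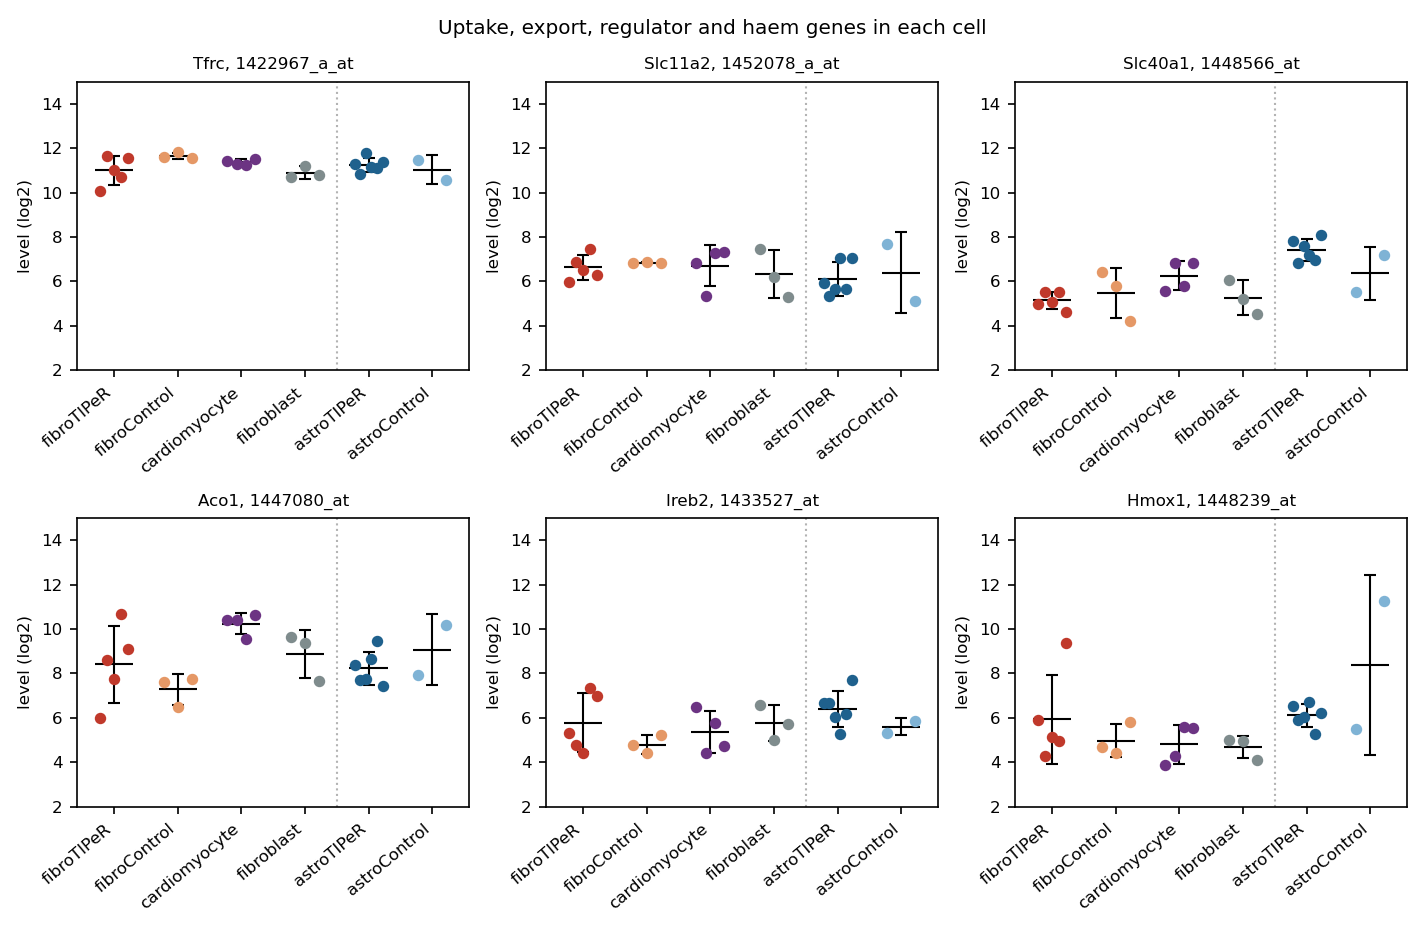
Levels (log2, vertical axis) of the probe set used for Tfrc, Slc11a2, Slc40a1, Aco1, Ireb2 and Hmox1 in each of 23 cells, by group; each point is 1 cell, and the line and bar are the group mean and SD. Tfrc on 1422967_a_at stays between 10.07 and 11.81 throughout, and the 2 highest Hmox1 values are fibroTIPeR 5 and astroControl 2.

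Of the iron regulatory proteins, Aco1, which is also the cytosolic aconitase, spread widely among fibroTIPeR cells, at 5.98, 8.60, 7.73, 10.66 and 9.10. FibroControl cells had 7.63, 6.49 and 7.74, cardiomyocytes 10.39, 10.42, 9.53 and 10.62, and fibroblasts 9.62, 9.35 and 7.64. The difference was 1.13 for fibroTIPeR against fibroControl (SE 0.85, limma adjusted p = 0.842), 1.37 for cardiomyocytes against fibroblasts (SE 0.89, limma adjusted p = 0.634) and -0.84 for astroTIPeR against astroControl (SE 0.95, limma adjusted p = 0.875). The fibroTIPeR cell with the lowest Fth1 had the highest Aco1, and the one with the highest Fth1 had the lowest. These Aco1 values are those of 1447080_at. The other 2 Aco1 probe sets, 1423644_at and 1456728_x_at, averaged 5.40 and 3.55 in cardiomyocytes and 5.17 and 3.37 in fibroblasts, with overlap. For fibroTIPeR against fibroControl they differed by -0.40 and -0.52, opposite in sign to 1447080_at. For astroTIPeR against astroControl they differed by -0.42 and 0.65. Ireb2, which is degraded when iron is plentiful, averaged 5.78 ± 1.32 in fibroTIPeR and 4.80 ± 0.41 in fibroControl cells (difference 0.98, SE 0.72, limma adjusted p = 0.842) and between 5.35 and 6.42 in the other groups.

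Hmox1, which opens the haem ring and frees its iron, was at or below 6.73 in 21 of 23 cells. The exceptions were fibroTIPeR 5 at 9.36 and astroControl 2 at 11.26, beside astroControl 1 at 5.50. AstroTIPeR cells averaged 6.12 ± 0.52 and astroControl cells 8.38 ± 4.07, a difference of -2.26 (SE 1.11, limma adjusted p = 0.530). Here 1 of 2 control cells decides: the difference was -5.14 without astroControl 1 and 0.62 without astroControl 2. With 1 astroControl cell left, that cell is assumed to vary like the other groups, which alone supply the spread. FibroTIPeR cells averaged 5.93 ± 2.01 and fibroControl cells 4.96 ± 0.74 (difference 0.96, SE 0.99, limma adjusted p = 0.902).

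Across the 7 genes, 0 passed in fibroTIPeR against fibroControl (0.0055% of all genes passed), 0 in cardiomyocyte against fibroblast (0.225%) and 0 in astroTIPeR against astroControl (0.0495%) with limma, and 0 had an unadjusted p under 0.05 in any of these. For the difference of the transfer effect between fibroblasts and astrocytes the count was also 0 (0% of all genes), with 1 gene, Hmox1, at an unadjusted p under 0.05. Against fibroblasts, the 6 genes other than Fth1 differed by -0.46 to 1.23 in fibroTIPeR and by -1.59 to 0.76 in fibroControl cells, and 4 of 6 were positive in each.

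**Figure D4:**
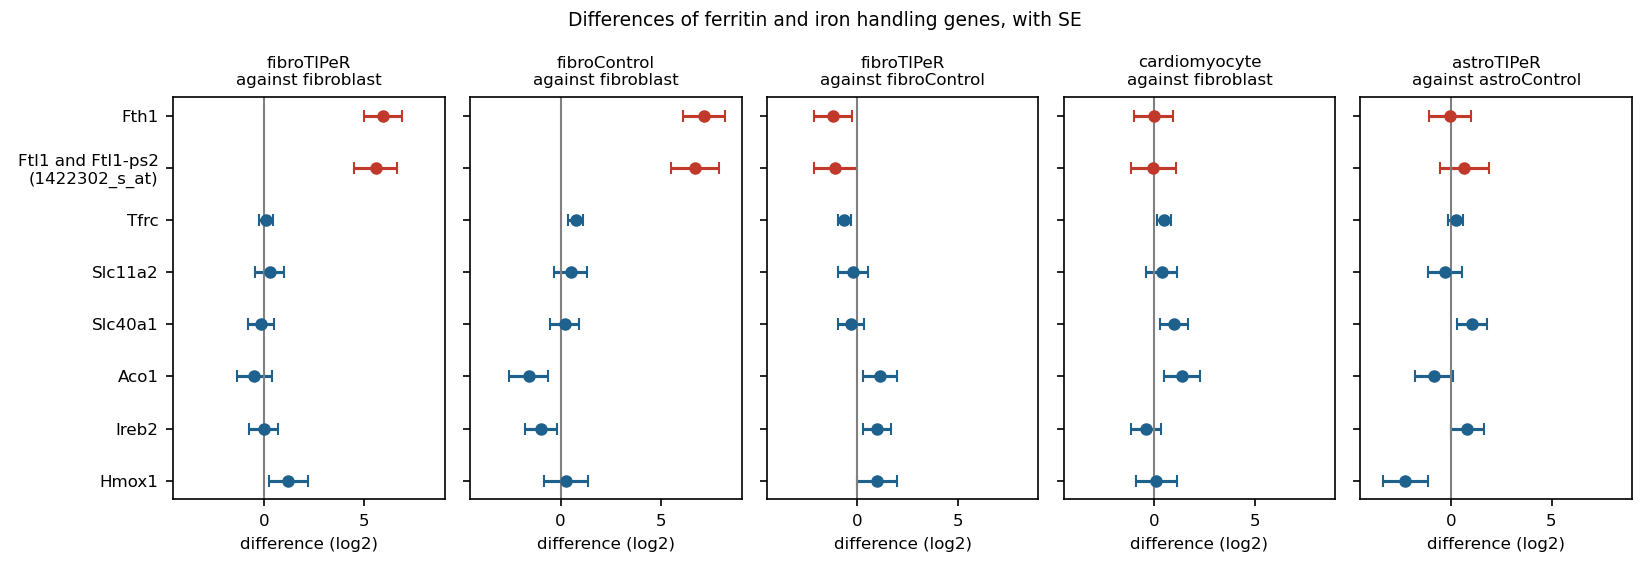
Differences (log2, horizontal axis) of 7 genes and of 1422302_s_at in 5 comparisons, the first-named group minus the second; points are fitted differences, bars their SE, and red marks Fth1 and 1422302_s_at. Fth1 and 1422302_s_at lie between 5.58 and 7.14 in both comparisons of RNA-transfected with untreated fibroblasts, and the other genes between -1.59 and 1.23 there.

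Within groups, Fth1 on 1448771_a_at correlated positively with 1422302_s_at, over cells that each share 1 array and 1 amplification. After subtraction of group means, Pearson's r of Fth1 with 1422302_s_at was 0.74 (Spearman's rho 0.51) over 15 fibroblast and cardiomyocyte cells and 0.68 (rho 0.57) over 8 astrocyte cells, falling to 0.39 and 0.18 without the 2 farthest cells. The other shared probe sets gave lower r over the same cells, 0.17 and 0.20 for 1418364_a_at and 0.19 and -0.20 for 1422301_at. With Tfrc r was -0.21 (rho -0.20) and -0.16 (rho -0.29), and with Slc11a2 -0.36 (rho -0.25) and 0.40 (rho 0.19). Without the 2 farthest cells these r were -0.25 and -0.14 for Tfrc and -0.01 and 0.28 for Slc11a2. With Aco1 on 1447080_at r was -0.87 (rho -0.65, and -0.67 without the 2 farthest cells) over 15 cells and 0.11 (rho 0.19) over 8. No correlation with Fth1 was computed for the other Aco1 probe sets. With Slc40a1 r was -0.42 over 15 cells and 0.11 over 8, with Ireb2 -0.41 and -0.10, and with Hmox1 0.17 and 0.20. Without the 2 farthest cells these r were -0.50 and 0.69, -0.02 and 0.87, and 0.02 and 0.37. With 18S r was 0.67 (rho 0.49) and 0.88 (rho 0.81), and 0.35 and 0.83 without the 2 farthest cells. These values describe the cells and were not tested. The second Fth1 probe set, 1427021_s_at, did not follow the first (r -0.17 over 15 cells and -0.03 over 8), and its r with Slc11a2 was 0.67 (rho 0.69, and 0.51 without the 2 farthest cells) over 15 cells and 0.23 (rho 0.14) over 8.

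**Figure D5:**
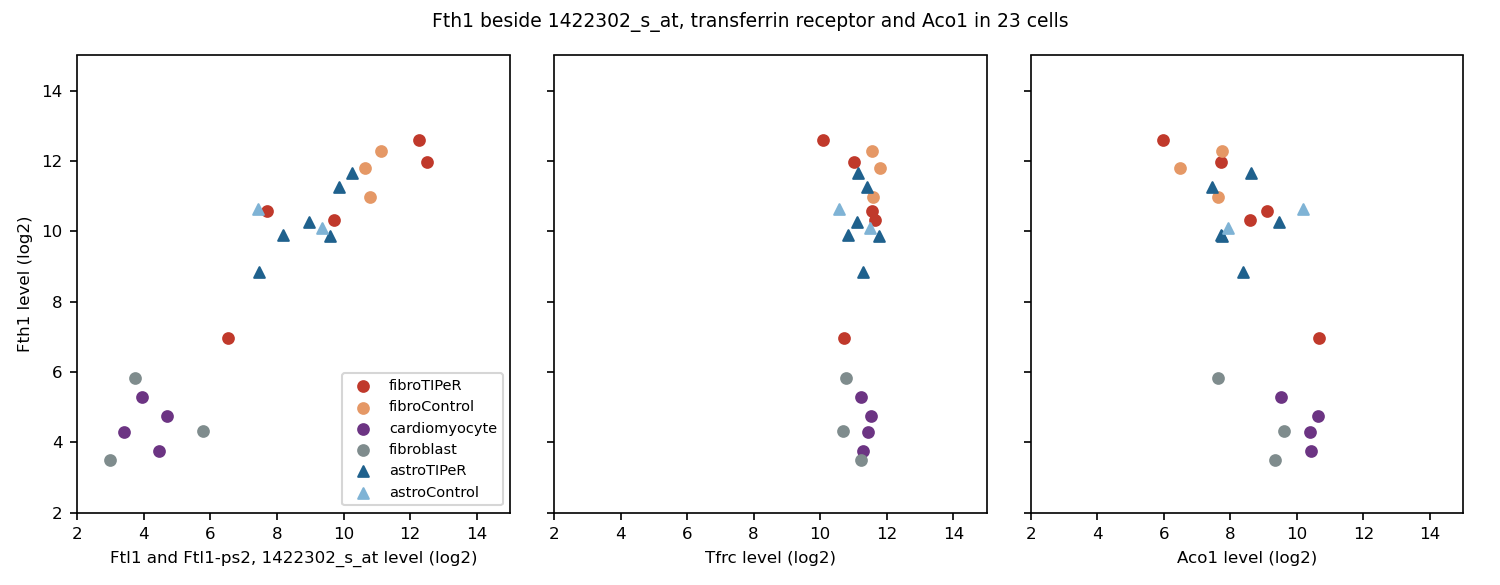
Fth1 level (log2, vertical axis) against the level (log2) of 1422302_s_at, Tfrc and Aco1 in 23 cells; each point is 1 cell, circles are fibroblast and cardiomyocyte arrays and triangles astrocyte arrays. Fth1 on 1448771_a_at and 1422302_s_at are high in the same cells, whereas Tfrc on 1422967_a_at lies between 10.07 and 11.81 at every level of Fth1.

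The 5 genes whose levels were most like Fth1 over the 15 fibroblast and cardiomyocyte cells, among 18192, were Herc2 (Pearson's r 0.962), Dpcd (0.942), Fn1 (0.938), Appbp2os (0.936) and Nckap1 (0.929). These cells fall into a high and a low cluster, so the likeness rests largely on the groups. Over the 8 astrocyte cells the same genes gave -0.45, 0.31, 0.43, 0.88 and -0.01. By the same measure Hmox1 ranked 4282, Tfrc 7110, Slc11a2 8274, Ireb2 11580, Slc40a1 14515 and Aco1 18029.

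Other genes of iron metabolism did not pass in fibroTIPeR against fibroControl, cardiomyocyte against fibroblast or astroTIPeR against astroControl, with the exception of Mb. Few genes passed at all there (0.0055%, 0.225% and 0.0495% of 18193), so a count of 0 in a short list tells little. None of 14 genes of uptake and the endosome passed in these 3 comparisons. Their median difference was 0.56, -0.70 and 0.15, beside -0.02, 0.09 and 0.08 over all genes. The iron and zinc carrier Slc39a14 averaged 8.45 ± 0.20 in astroTIPeR and 5.62 ± 0.42 in astroControl cells without overlap (difference 2.83, SE 1.05, limma adjusted p = 0.325). The reductase Steap4 averaged 7.66 in cardiomyocytes and 5.42 in fibroblasts (difference 2.24, limma adjusted p = 0.322).

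None of 8 genes of ferritin turnover and iron chaperones passed in the 3 comparisons, with medians of 0.04, 0.26 and 0.51. Ncoa4, the receptor that delivers ferritin to lysosomes, was at 11.32 ± 1.80 in astroTIPeR and 10.16 ± 1.11 in astroControl cells (difference 1.16, SE 1.19, limma adjusted p = 0.856). Ftmt, mitochondrial ferritin, was at 6.02 in fibroTIPeR and 4.14 in fibroControl cells (difference 1.88, limma adjusted p = 0.740). Against fibroblasts, Herc2 averaged 8.87 in fibroTIPeR cells, 9.48 in fibroControl cells and 4.41 in fibroblasts, a description from the contrasts that chose Fth1. Alad, of haem synthesis, went the other way, at 9.63, 7.84 and 10.98 in these groups. Its fibroControl cells did not overlap the fibroblasts, also as a description.

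None of 12 genes of export and the hepcidin axis, 18 of haem synthesis and breakdown, 15 of mitochondrial iron and iron-sulphur clusters and 18 antioxidant targets of NRF2 passed in the 3 comparisons. Median differences were -0.11, -0.32 and 0.31 for export, 0.03, -0.07 and 0.01 for haem, -0.00039, -0.17 and -0.12 for mitochondrial iron and -0.13, -0.0041 and -0.28 for the NRF2 list. Ceruloplasmin (Cp), the copper enzyme that oxidises exported iron, averaged 6.68 ± 2.44 in fibroTIPeR and 9.60 ± 0.92 in fibroControl cells (difference -2.91, SE 1.05, limma adjusted p = 0.545). The cluster scaffold Iscu averaged 6.74 in fibroTIPeR and 8.71 in fibroControl cells without overlap (difference -1.97, limma adjusted p = 0.716). The mitochondrial transporter Abcb10 averaged 6.41 ± 0.36 in astroTIPeR and 8.82 ± 1.24 in astroControl cells (difference -2.40, SE 0.76, limma adjusted p = 0.226). Transketolase (Tkt), of the NRF2 list, averaged 4.25 ± 0.83 in cardiomyocytes and 9.55 ± 1.93 in fibroblasts (difference -5.29, SE 1.21, limma adjusted p = 0.0654). Of 3 globins, myoglobin (Mb), the oxygen store of muscle, rose in cardiomyocytes, at 7.17 ± 0.42 against 4.32 ± 0.05 in fibroblasts (difference 2.85, SE 0.52, limma adjusted p = 0.0112), and stood at 4.2 in fibroTIPeR and 4.23 in fibroControl cells.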

How the data were processed

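Log2 expression values of 45101 probe sets in 23 cells were used as deposited by the authors; the log2 scale was inferred from the range of values. No label or header states how they were summarized and normalized. Because column medians differed by 1.29, above a limit of 1, all columns were quantile normalized. Detection calls were not used here. Of the probe sets, 34945 carried 1 gene symbol and 932 several, 9160 were not listed in the annotation, and 64 were controls. The annotation is that of the array platform. The probe set of 1 symbol with the highest mean stood for a gene (18193 genes). Groups came from the labels.

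Genes were tested with limma 3.58.1 (R 4.3.3, statmod 1.5.0), with lmFit over 6 group means in all 23 cells and eBayes with trend, two-sided, Benjamini-Hochberg adjusted over all genes, threshold 0.05. Shared Ftl1 probe sets and all member probe sets were read from a fit of 45037 probe sets, a fit added after seeing the data. The gene-level fit was first tested on simulated data for the pairwise group comparisons, and the few arrays limit the precision. The difference of the transfer effects, the probe set fit and the alternative fits were not simulated.

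The members and lists were chosen with earlier results of these data known. All members were named; of each list, up to 4 genes past the threshold with the largest change, otherwise among the 2 with the smallest p, and the 5 genes most like Fth1. Replicate numbers were not used to pair cells, and 5 of 21 same-number pairs had deviations correlated over 0.1 (range -0.341 to 0.285). Pairs of different numbers were not compared, so these values cannot decide whether the numbers pair cells. Promoter windows and positions are RefSeq's on GRCm38.p6. Figures used matplotlib 3.10.9 in Python 3.11.15. Alternatives are in the closing section.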

Additional observations from a re-analysis of the deposited data

How the results depend on the processing

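The direction of the Fth1 differences from fibroblasts held under every alternative run, at 3.47 to 7.08 for fibroTIPeR and 4.33 to 7.84 for fibroControl. These contrasts chose Fth1 and the alternatives reused the same cells, so this is a description and no support. The count of members past the threshold in fibroTIPeR against fibroblast, 1, fell to 0 with the compared groups alone, with 18S as a covariate, with fibroTIPeR 4 and 5 only, and without fibroTIPeR 3 (0 to 1 over the cells left out in turn). In fibroControl against fibroblast it was 0 with 18S as a covariate. Without astroControl 1 the Hmox1 difference was -5.14 in astroTIPeR against astroControl and 6.11 for the difference of the transfer effects. Leaving out any cell of the larger groups kept the count of members at 0 in both. The 1 astroControl cell left is there assumed to vary like the other groups. With the replicate block the Fth1 difference was 6.09 for fibroTIPeR and 7.14 for fibroControl against fibroblast, and no count of members changed.

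Signs turned, among differences larger than their SE and correlations beyond 0.5, for 1422302_s_at in fibroTIPeR against fibroControl (0.65 with fibroTIPeR 1 to 3 only), 1418364_a_at in fibroTIPeR against fibroblast (-0.040 with fibroTIPeR 4 and 5 only), Aco1 in fibroControl against fibroblast (0.32 with 18S as a covariate, 0.050 with the mean of its probe sets), Ireb2 there (0.89 with 18S) and Hmox1 in astrocytes (-5.14 to 0.62 over the cells left out). With the other Fth1 probe set the correlation was 0.17 with Aco1, -0.074 and -0.12 with 1422302_s_at, -0.16 with 18S and 0.67 with Slc11a2 (-0.36 with the brighter Fth1 probe set). With fibroTIPeR 4 and 5 only, 1422301_at was -0.76 in fibroTIPeR against fibroControl (adjusted p = 0.0325). The cause was not tested. Genes called over all 18193 ranged from 0 to 161 in fibroTIPeR against fibroControl, 0 to 610 in fibroTIPeR against fibroblast, 0 to 1890 in fibroControl against fibroblast, 2 to 1130 in cardiomyocyte against fibroblast, 1 to 543 in astroTIPeR against astroControl and 0 to 237 for the difference of effects. Groups of 2 to 6 cells limit what could be detected.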
